A study of Mus musculus with 14 samples.

Results

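Whether EPO changed a transcript by a different amount in stage E1 than in stage E2 progenitors was determined for each of 45037 probe sets, as the change with EPO in stage E2 minus the change with EPO in stage E1. All 14 arrays of the series entered this comparison, 8 of stage E1 and 6 of stage E2. A positive value means a larger rise, or a smaller fall, in stage E2. A negative value means a larger rise in stage E1, or a larger fall in stage E2.

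Both stages came from marrow of wild-type C57Bl/6 female mice aged 8 to 12 weeks, expanded in SP34ex medium that itself held EPO, stem cell factor, dexamethasone and estradiol. Stage E1 cells were CFUe-like progenitors, taken at day 3 per the labels by depletion of lineage-positive cells and selection for Kit and CD71. Stage E2 cells were proerythroblasts, taken from parallel cultures at day 3.5 after depletion of lineage-positive and of Kit-positive cells and selection for CD71. Cells of each stage were deprived of cytokines for 5.5 h and then either challenged for 90 min with 4 U/mL of EPO or left unchallenged. This gave 4 unchallenged and 4 EPO-challenged arrays in stage E1, and 3 of each in stage E2. The labels call them biological replicates without saying how many animals each held, so p-values measure the spread between these samples. The response was thus that of cells grown with EPO, deprived of it and exposed again, and stage cannot be told apart from array set or from sorting scheme.

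EPO signals through its receptor, EPOR, a dimer that carries the kinase JAK2. Activated JAK2 phosphorylates the receptor and the factor STAT5, which enters the nucleus and raises genes such as Cish, Socs2 and Pim1, while RAS to ERK and PI3K to AKT signalling run from the same receptor. AKT excludes FOXO factors from the nucleus, and SOCS proteins feed back on JAK2. CFUe-like progenitors depend on EPO for survival, and proerythroblasts, their progeny, begin to fill with haemoglobin.

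The deposited values are log2 GC-RMA values from which 1 constant per probe set was subtracted. Differences between arrays can therefore be read for a probe set, while levels, and one gene's level against another's, cannot. Stage E2 arrays varied less between replicates than stage E1 arrays. In stage E1 the median SD between replicates was 0.0934 without and 0.0729 with EPO, against 0.0317 and 0.0343 for stage E2 arrays. The SD over probe sets of a whole array was 0.633 to 0.736 in stage E1 and 0.259 to 0.295 in stage E2. Because of the subtraction, this SD also holds the distance of an array from the constants. The sort labels held for Kit, Slc4a1 and Alas2, and less evenly for the marker lists. Of 10 early progenitor genes 4 were lower and 2 higher in unchallenged stage E2 than E1. Of 13 erythroid genes 9 were higher and 1 lower. Kit, the receptor of stem cell factor, was lower in unchallenged stage E2 than E1 (by -3.98 on the log2 scale), and Slc4a1, the anion exchanger of the red cell membrane, and Alas2, the erythroid enzyme that opens haem synthesis, were higher (6.61 and 4.22). Of all probe sets, 10.1% were higher and 10.8% lower in unchallenged stage E2 than E1. Markers of other cell types also differed between stages. The mean centred value of 15 neutrophil genes lay between 4.01 and 4.46 on the stage E1 arrays and between -0.06 and -0.04 on the stage E2 arrays, and 9 of the 15 were lower in stage E2. For 17 monocyte and macrophage genes the ranges were 0.77 to 1.41 and -0.12 to -0.08, and for 11 mast cell and basophil genes 1.41 to 1.85 and -0.16 to 0.03. None of the genes of these 3 lists passed limma's test of the change with EPO in either stage or of the difference, where 1 of the 43 had an unadjusted p under 0.05, against 7.87% of all genes. Of 10 megakaryocyte genes 6 were higher in stage E2, with mean centred values of -0.61 to -0.20 in stage E1 and 1.001 to 1.18 in stage E2. Gp9 fell with EPO in stage E1 (-1.46), Itgb3 rose in stage E2 (0.88), and none of the 10 passed the test of the difference. Levels at 0 cannot be read from centred values, and the part of these markers in the results was not tested.

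With EPO, 1063 probe sets rose (2.36% of those tested) and 632 fell (1.4%) in stage E1, and 611 rose (1.36%) and 388 fell (0.862%) in stage E2 (limma, Benjamini-Hochberg adjusted p under 0.05). The change itself differed between stages in 187 probe sets. It was higher in stage E2 for 81 (0.18% of those tested) and lower for 106 (0.235%). After quantile normalization, which forces the narrow stage E2 arrays onto the same spread as those of stage E1, 949 were higher and 769 lower, which moved the higher share from 43.3% to 55.2%, and 71 and 77 of the original calls were among them. The replicate number was also used as a block in stage E1, where same-numbered arrays, and some of different number, deviated together. The counts were then 106 higher and 164 lower, with 49 and 84 in common. The largest class of the 106 lower probe sets held 50 with a rise in stage E1 and no call in stage E2. A further 43 fell in stage E2 without passing in stage E1, 9 rose in both stages and more in E1, 3 rose in E1 and fell in E2, and 1 passed in neither stage. Of the 81 higher probe sets, 49 rose in stage E2 without passing in stage E1, 21 fell in stage E1 without passing in stage E2, 7 rose in both stages and more in E2, 2 fell in E1 and rose in E2, 1 fell in both, and 1 passed in neither. The adjusted p-values of the difference may understate the false calls. On simulated data with the sample SDs of these groups, the share of unchanged probe sets among the calls was several times the nominal one. Those SDs came from 3 or 4 arrays each and are themselves uncertain, so the simulated share cannot be carried over to these data. Whether the arrays of both stages were normalized together is not given in the sources used here, and that bears on the size of every difference. With the replicate number as a block within each stage, 20 were higher and 24 lower, and of the 29 genes named by rule and called below, Nupr1, Pvt1, Ydjc, Socs3, Trim15, Sesn3 and Dusp16 were still called. With a variance of its own for each group, 4 were higher and 2 lower, and Dusp16 alone of the 29 was called. Fewer responding cells and a smaller change per cell cannot be told apart in such bulk samples.

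**Figure D1:**
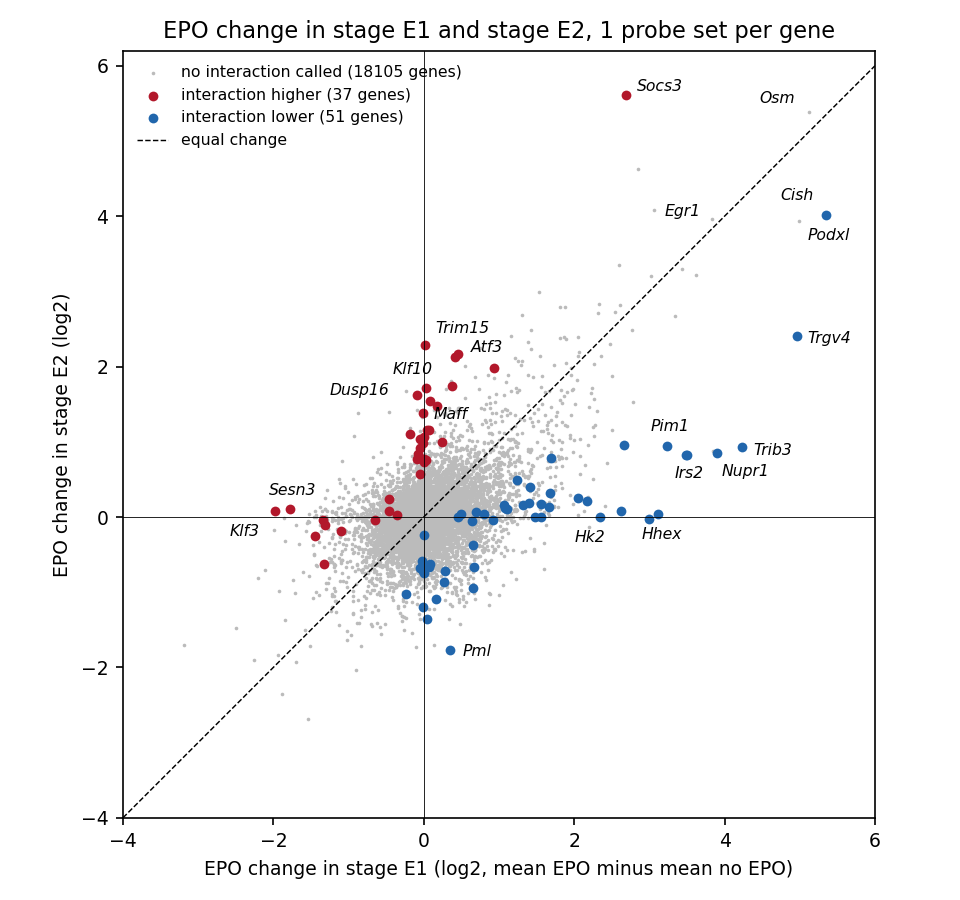
Change with EPO in stage E2 (vertical axis, log2) against the change in stage E1 (horizontal axis, log2), 1 point per gene, by 1 probe set each. Points in colour are the genes whose change differed between stages on that probe set, 37 higher and 51 lower in stage E2. Pearson's r is 0.441 over all 45037 probe sets, of which the figure shows only 1 per gene.

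Most of the response was shared in direction. Of 451 probe sets that passed the test in both stages, 446 moved the same way, 312 up and 134 down, and 5 moved in opposite directions. Among the 1063 that rose in stage E1, the median change was 0.99 in stage E1 and 0.47 in stage E2, with 88.1% of the same sign. Among the 611 that rose in stage E2 the medians were 0.60 in stage E1 and 0.99 in stage E2, so the stage in which probe sets were chosen had the larger median in both cases. For 152 of the 446, the 95% interval of the difference lay within 1.5-fold either way (34.1%, against 61.9% of all probe sets), and for 17 of them the difference passed the test, 10 with the larger change in stage E1 and 7 in stage E2.

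The 250 bases before the annotated start (mouse build GRCm38.p6, RefSeq) are given for 5 genes, chosen because each held a searched motif and its gene differed between stages. Windows of Trib3, Cish, Pim1, Hk2, Klf3 and Dusp16, which also differed between stages, were inspected and held none of the searched motifs. Capitals mark the motif, and sequences read 5′ to 3′ on the gene's strand.
Socs3, chr11:117969367-117969616, minus strand, capitals mark a STAT motif: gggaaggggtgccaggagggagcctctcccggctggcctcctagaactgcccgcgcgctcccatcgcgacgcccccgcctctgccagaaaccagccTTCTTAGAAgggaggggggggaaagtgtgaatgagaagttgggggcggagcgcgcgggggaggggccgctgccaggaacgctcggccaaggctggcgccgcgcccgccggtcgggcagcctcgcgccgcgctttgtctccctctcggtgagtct
Nupr1, chr7:126625471-126625720, minus strand, capitals mark a STAT motif and then an ATF4 composite motif: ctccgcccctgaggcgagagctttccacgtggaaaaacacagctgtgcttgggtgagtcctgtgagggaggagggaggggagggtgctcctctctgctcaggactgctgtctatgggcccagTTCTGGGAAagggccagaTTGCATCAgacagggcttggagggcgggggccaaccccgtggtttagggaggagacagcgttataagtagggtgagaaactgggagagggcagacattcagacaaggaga
Chac1, chr2:119350992-119351241, plus strand, capitals mark an ATF4 composite motif: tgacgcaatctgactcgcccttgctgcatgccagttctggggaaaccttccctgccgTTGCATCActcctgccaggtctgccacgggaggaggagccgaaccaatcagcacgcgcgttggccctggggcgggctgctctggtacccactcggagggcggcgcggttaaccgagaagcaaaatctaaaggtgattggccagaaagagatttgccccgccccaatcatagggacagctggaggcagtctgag
Srf, chr17:46556163-46556412, minus strand, capitals mark 2 CArG boxes: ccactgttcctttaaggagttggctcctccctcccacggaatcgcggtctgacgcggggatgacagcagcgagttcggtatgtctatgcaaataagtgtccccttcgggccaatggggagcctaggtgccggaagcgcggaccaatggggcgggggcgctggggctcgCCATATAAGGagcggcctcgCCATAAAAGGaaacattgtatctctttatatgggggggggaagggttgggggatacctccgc
Actg1, chr11:120348496-120348745, minus strand, capitals mark a CArG box: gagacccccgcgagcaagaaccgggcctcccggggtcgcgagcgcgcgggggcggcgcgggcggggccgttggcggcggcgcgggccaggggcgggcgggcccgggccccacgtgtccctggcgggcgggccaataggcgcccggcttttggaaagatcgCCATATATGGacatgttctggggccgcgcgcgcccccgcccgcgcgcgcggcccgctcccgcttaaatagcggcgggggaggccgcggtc

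The motifs searched, on both strands, were the STAT motif TTCNNNGAA, the ATF4 composite TGATGNAA, the cAMP response element TGACGTCA and the CArG box bound by serum response factor. Of 38 genes with a larger rise in stage E2 and a promoter in the table, 5 (13.2%) held the STAT motif, against 8.13% of 27025 promoters, namely Socs3, Trim15, Rasl11a, Nsun4 and Pde4dip. Of 38 genes with a larger rise in stage E1, 2 (5.26%) held it, Nupr1 and Slc7a1. The CArG box stood in 2 of the 38 promoters of the larger rise in stage E2, Srf and Actg1, and in 1.62% of all. The cAMP response element stood in 3 of them (7.89%), Maff, Cltb and Dcun1d3, and in 1.77% of all. The ATF4 composite stood in 2 of 38 promoters of the larger rise in stage E1 (Chac1 and Nupr1), in 4 of 38 (10.5%) of the larger rise in stage E2 (Atf3, Ccl27a, Gadd45g and Trim15) and in 3.91% of all. These counts describe letters in a short window and say nothing of binding.

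Genes of the amino acid and stress response were among those with the most negative differences. ATF4 is the factor that raises amino acid transport, transfer RNA charging and stress genes when amino acids run short or the endoplasmic reticulum is stressed. Of 29 measured ATF4 and amino acid response genes, 5 had a larger rise in stage E1 (Trib3, Nupr1, Chac1, Slc7a1 and Atf4 itself) and none had a larger rise in stage E2 (limma, 10 lower and 1 higher at an unadjusted p under 0.05). The counts depend on which genes the list holds. Atf3, whose promoter window held the ATF4 composite, was listed with the immediate early genes instead. It had a larger rise in stage E2 (a difference of 1.70). Of the 29, 10 rose with EPO in stage E1 and 1, the cystine transporter Slc7a11, rose in stage E2. The median change was 0.62 in stage E1 and 0.26 in stage E2, against -0.01 in both stages over 18193 genes. After quantile normalization 5 were lower, 4 of these and Ddit4, and 1 was higher, Psat1, and the median difference of -0.28 became -0.02. Over all 18193 genes, 51 were lower and 37 higher in limma, with 784 and 647 at an unadjusted p under 0.05. After quantile normalization 344 of all genes were lower and 475 higher. In all, 591 genes rose in stage E1 and 324 in stage E2.

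Trib3, a pseudokinase that restrains AKT and is itself raised by ATF4, had the most negative difference among genes that passed. Unchallenged stage E1 arrays stood at -7.67, -7.35, -6.68 and -6.77 and EPO-challenged ones at -2.55, -2.89, -2.93 and -3.15. Unchallenged stage E2 arrays stood at -0.28, 0 and 0 and EPO-challenged ones at 0.83, 0.88 and 0.82. The groups did not overlap in either stage, and every stage E2 array lay above every stage E1 array. It rose 18.9-fold in stage E1 (limma adjusted p = 1.3e-06), a value 1.91-fold higher in stage E2 did not pass (0.0837), and the difference was -3.30 ± 0.313 (SE, adjusted p = 0.00111). Both probe sets of Trib3 had a lower change in stage E2.

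Nupr1, a small nuclear stress protein, followed the same course. Its unchallenged stage E1 arrays lay at -4.47, -4.43, -4.24 and -4.81 and its EPO-challenged ones at -0.07, -0.26, -0.79 and -1.22. In stage E2 the arrays lay at -0.04, -0.2 and 0.04 without and 0.76, 0.76 and 0.82 with EPO. The groups were apart in both stages, and unchallenged stage E2 lay 4.42 above unchallenged stage E1. The difference in change was -3.06 ± 0.332 (adjusted p = 0.00298). Chac1, which degrades glutathione, rose 11.3-fold in stage E1, from -3.98, -5.09, -4.2 and -4.4 to -0.57, -0.73, -0.94 and -1.46. In stage E2 it lay at 0, 0 and -0.12 without and 0.86, 0.68 and 0.83 with EPO, a change of 0.83 that did not pass the test (adjusted p = 0.215), and the difference was -2.66 ± 0.356 (adjusted p = 0.0119). All 3 genes had a higher unchallenged level in stage E2. They kept the call with each array left out in turn and after quantile normalization, where Trib3 stood at -1.43, Nupr1 at -1.40 and Chac1 at -1.17. With the block within each stage Trib3 and Chac1 did not pass (adjusted p = 0.0762 and 0.0874).

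Atf4 itself, chosen with Slc7a1 after their values were seen, changed by 1.41 in stage E1 and 0.40 in stage E2, where it did not pass (adjusted p = 0.105). Its unchallenged stage E1 arrays lay at -1.62, -1.56, -1.61 and -1.76 and its EPO-challenged ones at 0.05, -0.47, -0.27 and -0.19, and its stage E2 arrays at 0.01, -0.06 and -0.01 without and 0.48, 0.39 and 0.27 with EPO. The groups did not overlap in either stage. The difference of -1.01 ± 0.142 (adjusted p = 0.0145) was -0.34 and lost the call after quantile normalization (adjusted p = 0.34). Slc7a1, an importer of arginine and lysine, changed by 2.06 in stage E1 and 0.26 in stage E2, a difference of -1.80 ± 0.293 (adjusted p = 0.0281). It rose in stage E1 and was not called in E2, and the call of the difference was lost without any of 8 arrays (EPO-challenged stage E1 arrays 3 and 4, unchallenged stage E2 arrays 1, 2 and 3, EPO-challenged stage E2 arrays 1, 2 and 3, adjusted p of 0.0559 to 0.0784). Across the list, 19 of the 29 genes were higher and 2 lower in unchallenged stage E2 than E1, with a median of 1.36, and these comparisons share the unchallenged arrays with the difference itself.

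Ears2, the mitochondrial synthetase that charges glutamate, had a difference of -0.99 ± 0.14 (adjusted p = 0.0147), with changes of 1.10 in stage E1 and 0.11 in stage E2. It was the only one of 35 aminoacyl-tRNA synthetases called, on 1 of its 4 probe sets, and the call was lost after quantile normalization (adjusted p = 0.072). In the list, 7 synthetases rose in stage E1 and 1 in stage E2, against 591 and 324 of all 18193 genes. After quantile normalization Nars and Tars were higher.

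**Figure D2:**
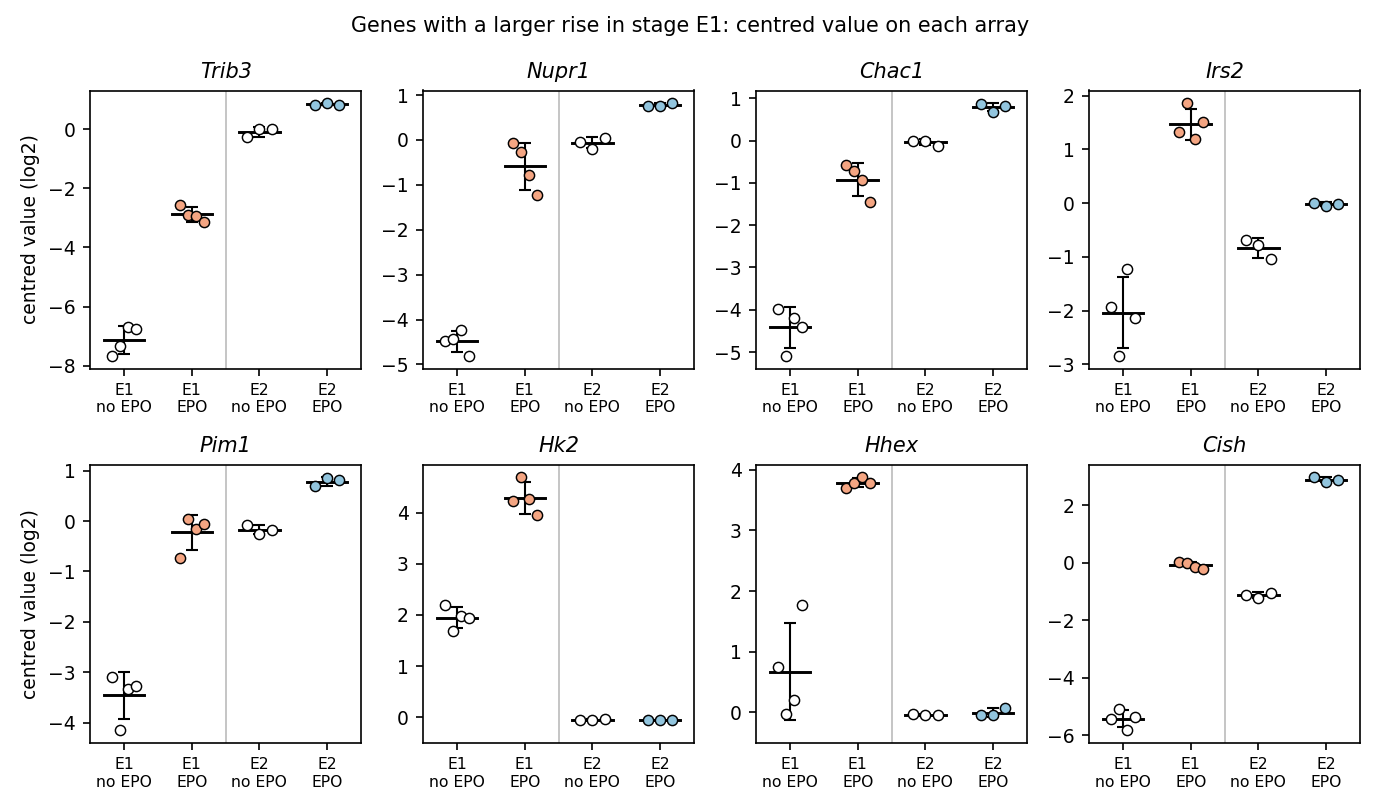
Centred log2 values of 8 genes on each array (points), by stage and EPO, with the mean and SD of each group as bars. Trib3, Nupr1 and Chac1 rise from a low unchallenged stage E1 level, while Hk2 spans 0.02 over the 6 stage E2 arrays.

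Several genes rose in stage E1 from a stage E2 value that was flat. Hk2, the hexokinase that commits glucose to glycolysis, lay at 2.2, 1.69, 1.97 and 1.94 in unchallenged and 4.23, 4.7, 4.27 and 3.96 in EPO-challenged stage E1. All 6 stage E2 arrays lay between -0.06 and -0.04, a range of 0.021. The rise was 5.06-fold in stage E1, the change in stage E2 was 0.00, and the difference was -2.34 ± 0.209 (adjusted p = 0.000726, and 0.0645 with the block within each stage). Of 29 glycolysis and hypoxia genes Hk2 was the only one called. Whether a flat probe set had any signal cannot be read from centred values. Of the 187 probe sets, 21 spanned less than 0.2 over all stage E2 arrays, 17 of them lower, and 35 spanned less than 0.2 over all stage E1 arrays, 22 of them higher.

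Hhex, a homeobox factor of early blood and endothelial progenitors, lay at 0.75, -0.03, 0.2 and 1.77 without EPO and at 3.7, 3.78, 3.88 and 3.78 with EPO in stage E1. Its stage E2 arrays lay at -0.03, -0.05 and -0.05 without and -0.04, -0.05 and 0.08 with EPO. The groups were apart in stage E1 and overlapped in stage E2, and the difference was -3.07 ± 0.458 (adjusted p = 0.0191). Ydjc, a homologue of a bacterial carbohydrate deacetylase, changed by 2.62 in stage E1 and 0.08 in stage E2, a difference of -2.54 ± 0.235 (adjusted p = 0.000901). Pvt1, the long noncoding RNA beside Myc, changed by 2.99 and -0.02 on the probe set with a difference of -3.01 ± 0.452 (adjusted p = 0.0191), while its other 4 probe sets did not pass and ranged from -1.44 to 0.19. Grtp1, a TBC domain protein, changed by 2.17 in stage E1 and 0.21 in stage E2, with a difference of -1.96 ± 0.33 (adjusted p = 0.0331) on 1 of its 2 probe sets. Calls of 3 of these were lost when single arrays were left out. Hhex lost its call without unchallenged stage E2 array 1 or 2 or EPO-challenged array 1 (adjusted p of 0.0529 to 0.0538), Pvt1 without unchallenged stage E2 array 1 or 2 or EPO-challenged array 1 or 3 (0.0529 to 0.0548), and Grtp1 without EPO-challenged stage E1 array 4 or any of the 6 stage E2 arrays (0.0525 to 0.0971) and after quantile normalization (0.0683).

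Of 30 erythroid and progenitor transcription factors, Hhex and Lyl1 were called, both lower. Lyl1, a relative of Tal1 in blood stem and progenitor cells, rose in both stages, by 1.24 in stage E1 and 0.49 in stage E2 (adjusted p = 0.0194), with a difference of -0.74 ± 0.123 (adjusted p = 0.0294) that quantile normalization moved to 0.00. Its call was lost without any of 7 arrays (unchallenged stage E1 array 2, EPO-challenged stage E1 array 4, unchallenged stage E2 arrays 2 and 3 and all 3 EPO-challenged stage E2 arrays, adjusted p of 0.0574 to 0.0847).

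Of 31 measured EPO and STAT5 target genes, 24 rose in stage E1 and 18 in stage E2, 1 fell in each (Bcl6, a repressor that STAT5 is known to lower), and the change differed between stages in 8. It was lower in stage E2 for Trib3, Irs2, Chac1, Trgv4, Pim1, Cish and Lyl1 and higher for Socs3. The median change was 2.55 in stage E1 and 1.44 in stage E2. The median difference was -0.33, and it was 1.44 after quantile normalization, where 15 genes were higher and 4 lower, so a larger or smaller rise over this list as a whole depends on how the spreads of the stages are set against each other. Over all 18193 genes, 51 were lower and 37 higher, and 344 and 475 after quantile normalization. Of all genes, 591 rose and 319 fell in stage E1, and 324 rose and 161 fell in stage E2.

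Cish, the SOCS protein that STAT5 raises most directly, rose in both stages. Its stage E1 arrays lay at -5.44, -5.11, -5.83 and -5.38 without and 0.02, -0.02, -0.14 and -0.22 with EPO, and its stage E2 arrays at -1.11, -1.24 and -1.05 without and 2.97, 2.81 and 2.88 with EPO. No groups overlapped, and the unchallenged arrays of stage E2 lay 4.31 above those of stage E1. The rise was 40.7-fold in stage E1 and 16.2-fold in stage E2 (adjusted p = 7.8e-09 and 1.99e-07). The difference was -1.33 ± 0.189 (adjusted p = 0.0152, and 0.0762 with the block within each stage), and it was 3.05 after quantile normalization, the opposite direction.

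Socs3, which binds JAK2 and receptor and ends their signal, went the other way on all 3 of its probe sets. On the first, stage E1 arrays lay at -2.3, -2.41, -2.44 and -2.43 without and 0.48, 0.71, 0.18 and -0.18 with EPO, and stage E2 arrays at -2.17, -2.44 and -2.45 without and 3.4, 3.36 and 3.0 with EPO. The unchallenged stages overlapped, and the EPO-challenged stage E2 arrays were all above those of stage E1. The rise was 6.48-fold in stage E1 and 48.8-fold in stage E2, a difference of 2.91 ± 0.257 (adjusted p = 0.000675). On the other probe sets the changes in stage E1 were 0.21 and 0.67, which did not pass (adjusted p = 0.211 and 0.0705), and those in stage E2 were 4.60 and 5.32, so the differences were 4.39 and 4.66 (adjusted p = 2.83e-08 and 3.6e-05). The difference of Socs3 stood between 2.75 and 7.70 in all alternative fits, the highest after quantile normalization, and its adjusted p was 0.0721 with unequal group variances and under the threshold in every other. Of the other SOCS genes, Socs2 rose 14.3-fold and 15.7-fold with a difference of 0.13 (95% interval -0.77 to 1.03), with 1 of its 6 probe sets called higher at 0.46 (adjusted p = 0.0178, 0.0508 with the stage E1 block and 0.0536 without unchallenged stage E2 array 2), and Socs1 stood at 0.00.

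Pim1, a kinase that STAT5 raises and that favours survival, lay at -3.09, -4.15, -3.33 and -3.27 without and -0.73, 0.05, -0.16 and -0.05 with EPO in stage E1, and at -0.08, -0.25 and -0.18 without and 0.69, 0.85 and 0.81 with EPO in stage E2. Groups did not overlap within a stage. The rise was 9.41-fold in stage E1, the change in stage E2 was 0.95 (adjusted p = 0.108), and the difference was -2.28 ± 0.337 (adjusted p = 0.0181). Its other probe set had -2.13 and did not pass (adjusted p = 0.494). The call was lost without unchallenged or EPO-challenged stage E2 array 1 (adjusted p of 0.0529 to 0.053) and after quantile normalization (0.253). Its paralogs did not pass. Pim3 rose by 2.08 in stage E1 and 1.03 in stage E2, a difference of -1.05 (adjusted p = 0.11) that passed without unchallenged stage E1 array 4 (0.0268), and Pim2 stood at -0.67 and 0.80.

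Irs2, the adaptor that couples receptors to PI3K and is also a FOXO target, rose 11.3-fold in stage E1, from -1.93, -2.84, -1.23 and -2.14 to 1.32, 1.86, 1.19 and 1.5. In stage E2 it lay at -0.69, -0.78 and -1.04 without and 0.01, -0.05 and -0.01 with EPO, groups apart but not past the test (adjusted p = 0.357). The difference was -2.68 ± 0.421 (adjusted p = 0.0234), not past the test with the stage E1 block (0.0579), after quantile normalization (0.599) or without any of 6 arrays (EPO-challenged stage E1 array 4, unchallenged stage E2 array 1 or 2 and each EPO-challenged stage E2 array, 0.0529 to 0.0708). Gab2, a docking protein of the same pathway, changed by 1.56 in stage E1 and 0.17 in stage E2, a difference of -1.38 ± 0.167 (adjusted p = 0.00605) on 1 of its 3 probe sets, with 0.101 after quantile normalization. Of 26 genes of the EPO receptor and proximal signalling, these 2 were called, both lower, against 51 lower and 37 higher of all 18193 genes. After quantile normalization Akt1, Pik3cb and Stat3 were higher and Inpp5d lower, against 475 higher and 344 lower of all genes. In the main fit the receptor, Jak2 and STAT5 were not called, with differences of -0.08 for Epor, 0.19 for Jak2, -0.33 for Stat5a and -0.06 for Stat5b.

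Trgv4, a V segment of the T cell receptor's gamma chain, rose 31.1-fold in stage E1 and 5.29-fold in stage E2. Its stage E1 arrays lay at -0.29, -0.02, 0.02 and 0.33 without and 5.95, 4.57, 4.69 and 4.65 with EPO, and its stage E2 arrays at -0.13, -0.21 and -0.16 without and 2.21, 2.42 and 2.07 with EPO. The EPO-challenged groups were far apart in value and did not overlap. The difference was -2.55 ± 0.41 (adjusted p = 0.0267) and 0.10 after quantile normalization. The call was lost with the stage E1 block (0.0537) and without any of 8 arrays (unchallenged stage E1 arrays 1, 2 and 3, the 3 unchallenged stage E2 arrays and EPO-challenged stage E2 arrays 1 and 3, 0.0528 to 0.0758), whereas another of its 3 probe sets, at -2.44 (adjusted p = 0.000383), kept its call with each array left out and lost it after quantile normalization (0.353).

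The other targets did not differ past the test. Osm, oncostatin M, a cytokine and direct STAT5 target, rose from -2.18, -3.34, -2.66 and -3.03 to 2.4, 2.18, 2.43 and 2.28 in stage E1, and from -2.48, -2.49 and -2.46 to 3.07, 2.73 and 2.95 in stage E2. These are rises of 34.9-fold and 42.0-fold. Between stages, the unchallenged arrays overlapped and the EPO-challenged ones did not, and the difference was 0.27 (95% interval -0.40 to 0.94). Tnfrsf13c, the BAFF receptor, rose 12.3-fold and 9.31-fold with a difference of -0.40 (-1.16 to 0.36), Noct, a circadian phosphatase, 5.85-fold and 6.59-fold with 0.17 (-0.29 to 0.63), and Ccnd2, cyclin D2, 10.8-fold and 9.85-fold with -0.13 (-0.66 to 0.39). These intervals leave room for differences of over 1.5-fold. For Ccnd2, 1 of 7 probe sets was called, at -2.53 (adjusted p = 0.000383), with changes of 3.12 and 0.59. After quantile normalization Ccnd2 and Tnfrsf13c were positive (3.22 and 3.21). Podxl, the sialomucin podocalyxin, changed by 4.99 and 3.93, Egr1, the ERK-driven zinc finger factor, by 3.06 and 4.08, Myc by 2.59 and 3.35, and Spred1, an inhibitor of ERK signalling, by 2.61 and 2.82. The differences of these 4 did not pass (adjusted p of 0.616 to 1). For Spred1, 1 of 8 probe sets was called higher, at 1.88 (adjusted p = 0.0477, and 0.0587 with the stage E1 block), and its call was lost without any of 11 arrays (all but EPO-challenged stage E1 array 2 and EPO-challenged stage E2 arrays 1 and 3, 0.051 to 0.13). Tfrc, the transferrin receptor, and the survival gene Bcl2l1, which encodes Bcl-x, did not pass in either stage. The paper states that a link from EPO to Bcl-x has been challenged by studies of primary marrow progenitors.

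**Figure D3:**
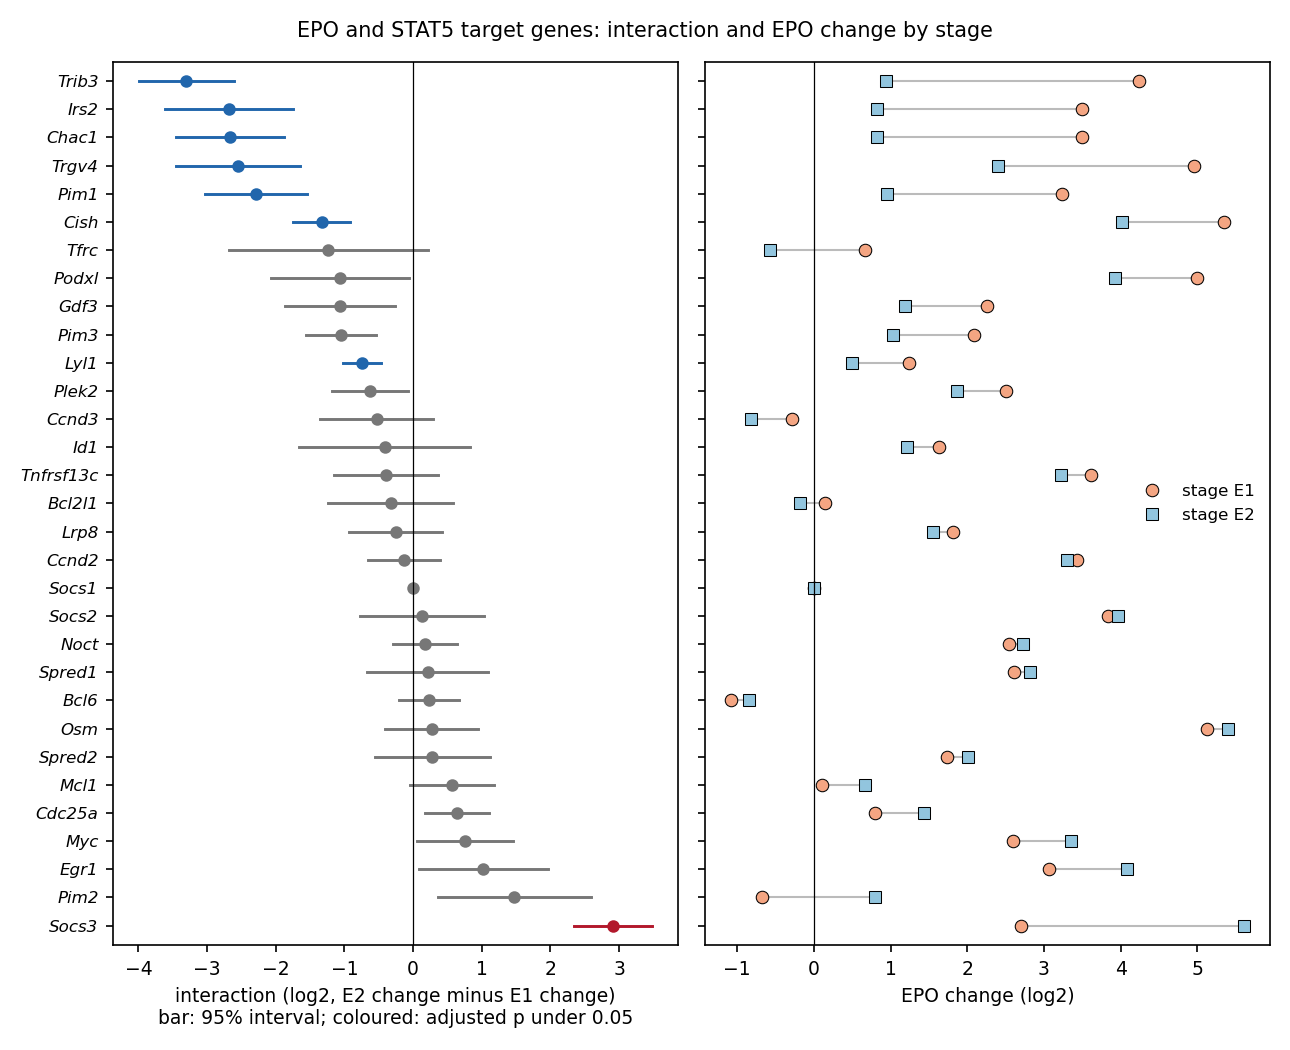
Difference between stages in the change with EPO, with its 95% interval (left, log2), and the change in each stage (right, log2) for 31 EPO and STAT5 target genes. Among the differences, Socs3 is called to the right of 0 and 7 genes to the left of 0, and grey marks those that did not pass.

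Genes that ERK and stress signalling are known to induce were among those with a larger rise in stage E2. Of 27 immediate early genes, the change was higher in stage E2 for 3, Maff, Atf3 and Klf10, and lower for none (limma, 10 higher and 1 lower at an unadjusted p under 0.05). In all, 6 rose in stage E1 and 11 in stage E2, and the medians were 0.03 and 0.47. The median difference of 0.31 was 0.96 after quantile normalization, with 12 higher and 1 lower. Over all 18193 genes, 37 were higher and 51 lower in limma, with 647 and 784 at an unadjusted p under 0.05. After quantile normalization 475 of all genes were higher and 344 lower. In all, 591 genes rose in stage E1 and 324 in stage E2. Maff, a small Maf factor, was flat in stage E1, with all 8 arrays between -0.03 and 0.01. Its stage E2 arrays lay at -0.02, -0.03 and -0.02 without and 1.55, 1 and 1.55 with EPO. It rose 2.62-fold there, and the difference was 1.39 ± 0.148 (adjusted p = 0.00256). Atf3, a stress factor of the CREB family, lay at -1.17, -1.19, -1.12 and -1.2 without and -0.76, -1.01, -0.79 and -0.29 with EPO in stage E1, groups apart but not past the test (adjusted p = 0.118). The stage E2 arrays went from -0.23, 0.22 and -0.22 to 2.06, 2.1 and 2.09, a rise of 4.47-fold, and the difference was 1.70 ± 0.211 (adjusted p = 0.0073). Klf10, a zinc finger factor that TGF-beta and EGF raise, changed by 0.42 and 2.13, with overlapping groups in stage E1 and separate ones in stage E2. Its difference of 1.70 ± 0.31 (adjusted p = 0.048) was past the test without EPO-challenged stage E1 array 2 and not without any of the other 13 arrays (0.0594 to 0.134), nor with median centring (0.052).

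Dusp16, a phosphatase of JNK and p38, had overlapping groups in stage E1, at -0.45, -0.6, -0.16 and -0.37 without and -0.64, -0.45, -0.51 and -0.33 with EPO. In stage E2 it lay at -0.07, 0.07 and -0.08 without and 1.66, 1.54 and 1.58 with EPO. This rise was 3.08-fold, and the difference was 1.71 ± 0.137 (adjusted p = 0.000383) with both probe sets called. Trim15, a RING finger protein, stayed between -0.08 and 0 in stage E1 and lay at -0.08, -0.04 and -0.03 without and 2.25, 1.84 and 2.62 with EPO in stage E2, a difference of 2.26 ± 0.183 (adjusted p = 0.000383). Dusp16, Trim15, Maff and Atf3 kept the call with each array left out and after quantile normalization, where they stood at 2.53, 3.46, 2.13 and 3.15. With the block within each stage Maff and Atf3 did not pass (adjusted p = 0.0576 and 0.079). The calls of 3 further genes were less stable. Wsb2, a SOCS-box protein, had a difference of 1.69 ± 0.256 (adjusted p = 0.0204) on 1 of its 3 probe sets. Phlda1, a pleckstrin homology protein induced by ERK, had 1.47 ± 0.266 (0.0477), and Rasl11a, a RAS-like protein of the nucleolus, 1.36 ± 0.24 (0.0406). With the stage E1 block the adjusted p of the 3 genes was 0.0626, 0.0676 and 0.0515. Wsb2 lost its call without unchallenged stage E2 array 1 or 2 (0.0579 to 0.0583) and with array weights per group (0.127). Phlda1 lost it without any array but unchallenged stage E1 arrays 1 and 3 and EPO-challenged array 2 (0.0606 to 0.132) and with median centring (0.0581). Rasl11a lost it without any array but unchallenged stage E1 array 3, unchallenged stage E2 array 3 and EPO-challenged stage E2 array 3 (0.0536 to 0.121) and with array weights per group (0.0822).

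Srf and Actg1 were chosen after their values were seen. Srf, serum response factor itself, rose in both stages, by 0.93 in stage E1 and 1.98 in stage E2. Its stage E1 arrays lay at -0.19, 0.07, 0.1 and 0.39 without and 1.15, 0.99, 1.14 and 0.81 with EPO, and its stage E2 arrays at -0.3, -0.34 and -0.31 without and 1.66, 1.69 and 1.65 with EPO. No groups overlapped within a stage, and the difference was 1.05 ± 0.163 (adjusted p = 0.0227), not past the test with the stage E1 block (0.0579) or without any of 5 arrays (unchallenged stage E2 arrays 1 and 2, EPO-challenged stage E2 arrays 1, 2 and 3, 0.0515 to 0.066). Actg1, cytoplasmic gamma actin, a known target of serum response factor, did not pass in stage E1, at 0.11, 0.04, -0.01 and -0.1 without and 0.19, 0.13, -0.09 and 0.01 with EPO. With EPO it rose in stage E2 by 1.16, from -0.81, -0.82 and -0.8 to 0.36, 0.4 and 0.28, and the difference was 1.11 ± 0.0928 (adjusted p = 0.00047). Both hold the CArG boxes in capitals above, at -82 and -62 from the start in Srf and at -90 in Actg1. Mcl1, a guardian against apoptosis that is in the STAT5 list, was called on 1 of its 6 probe sets (0.87 ± 0.101, adjusted p = 0.00466), and the others had differences of 0.49 to 0.80.

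**Figure D4:**
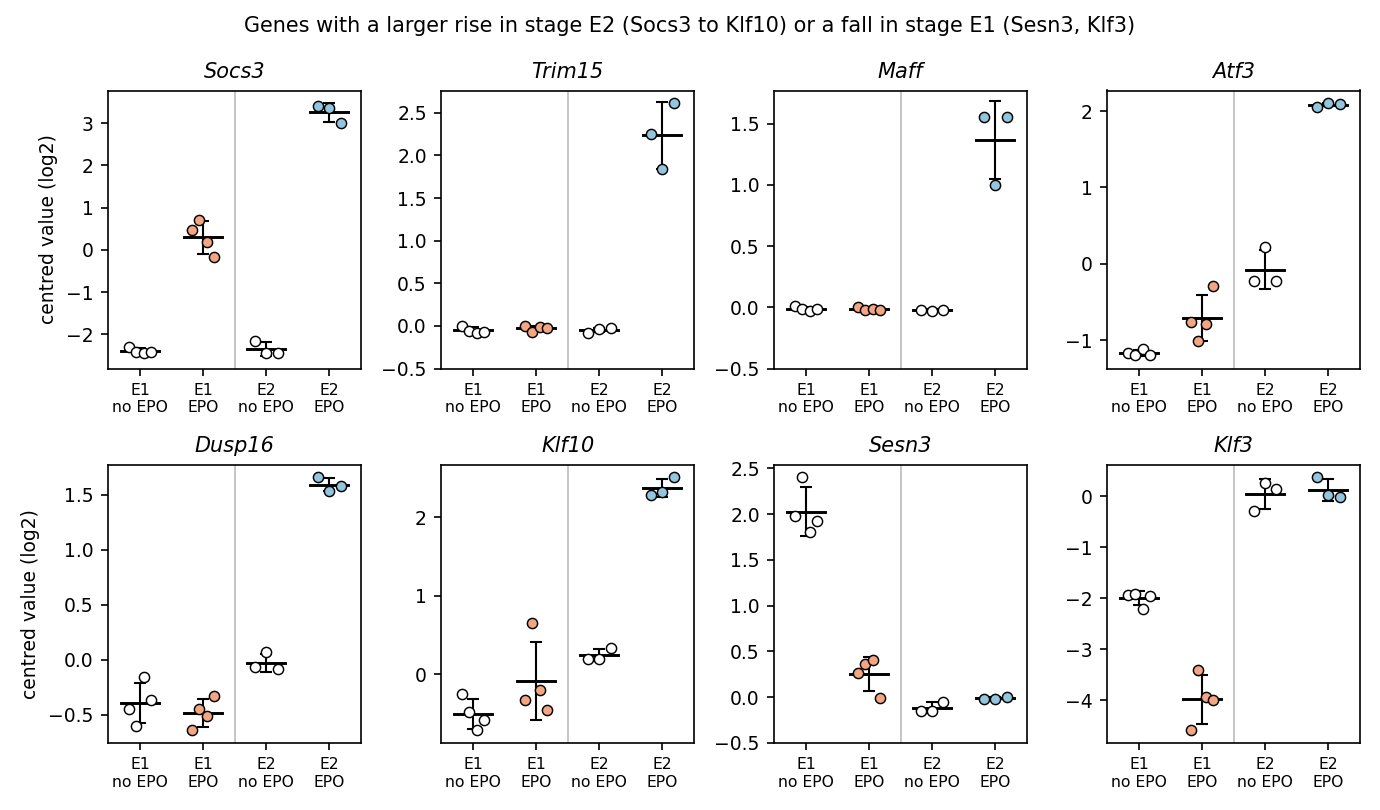
Centred log2 values of 8 genes on each array (points), by stage and EPO, with the mean and SD of each group as bars. Trim15 and Maff lie flat in stage E1 and, like Dusp16, rise in stage E2, while Klf3 and Sesn3 fall in stage E1 alone.

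Other positive differences were falls in stage E1. FOXO factors are active when AKT is not, and 33 of their members and targets were measured. Of these, 9 fell and 3 rose with EPO in stage E1, and 6 fell and none rose in stage E2, with medians of -0.51 and -0.24. The change was higher in stage E2 for 2, Sesn3 and Klf3, and lower for Irs2. The median difference of 0.08 was -0.44 after quantile normalization, where 1 gene was higher and 4 lower. Of all 18193 genes, 319 fell and 591 rose in stage E1, and 161 fell and 324 rose in stage E2. The change was higher for 37 and lower for 51 of them, and for 475 and 344 after quantile normalization. Sesn3, a sestrin that restrains mTORC1, lay at 1.98, 2.41, 1.8 and 1.92 without and 0.26, 0.36, 0.4 and -0.01 with EPO in stage E1. In stage E2 it lay between -0.15 and 0 on all 6 arrays. The fall of 3.42-fold in stage E1 and the change of 0.10 in stage E2 gave a difference of 1.88 ± 0.188 (adjusted p = 0.00175) on 1 of its 2 probe sets. Klf3, a Krüppel-like repressor of erythroid cells, fell from -1.93, -1.92, -2.21 and -1.96 to -4.59, -3.41, -3.94 and -3.99 in stage E1, and lay at -0.29, 0.26 and 0.15 without and 0.37, 0.02 and -0.02 with EPO in stage E2. The groups were apart in stage E1 and overlapped in stage E2. The difference was 2.06 ± 0.331 (adjusted p = 0.0267), lost after quantile normalization (0.051) and without any of 10 arrays (all but unchallenged stage E1 arrays 3 and 4 and EPO-challenged arrays 1 and 2, 0.0509 to 0.0782). Of 7 probe sets 4 were called, and 2 of them, at 2.03 and 3.12, kept the call with each array left out.

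The FOXO targets Cdkn1b, the CDK inhibitor p27, Ccng2, cyclin G2, and Bcl2l11, the killer protein Bim, fell in both stages. Cdkn1b fell by 1.84 in stage E1 and by 1.37 in stage E2, Ccng2 by 2.50 and 1.48, and Bcl2l11 by 1.88 and 2.36. None of their differences passed (adjusted p of 0.393 to 1), so within this list both shared and stage-limited falls were measured. Brpf3, a chromatin reader of histone acetyltransferase complexes, fell by 1.34 in stage E1 with a change of -0.04 in stage E2 on 1 of its 2 probe sets. The other had a difference of 0.375 and did not pass. On the first, the difference of 1.30 ± 0.19 (adjusted p = 0.0179) was lost with the stage E1 block (0.0533), after quantile normalization (0.0871) and without unchallenged or EPO-challenged stage E2 array 1 (0.052 to 0.053). Pole, the leading strand DNA polymerase, fell by 0.36 in stage E1, with a difference of 0.39 ± 0.0578 (adjusted p = 0.018) that was lost with the trend and robust options (0.305), among the more variable probe sets (0.235) and without the same arrays (0.0513 to 0.053). It was the only one of 43 DNA replication genes called.

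Falls that passed in stage E2 alone made up 43 of the 106 negative differences. Pml, the body-forming nuclear protein, lay at 0.02, -0.21, -0.22 and -0.22 without and 0.84, -0.09, -0.22 and 0.22 with EPO in stage E1, and went from 2.24, 1.93 and 1.83 to 0.26, 0.16 and 0.28 in stage E2. The stage E1 groups overlapped, and EPO brought stage E2 close to the stage E1 values. It fell 3.39-fold in stage E2, and the difference was -2.11 ± 0.296 (adjusted p = 0.0145, and 0.0626 with the block within each stage) on 1 of its 3 probe sets. Others were chosen after their values were seen. Wapl, which releases cohesin from chromatin, stood between -1.48 and -1.36 on all 8 stage E1 arrays of 1 probe set. In stage E2 this probe set went from 1.23, 1.48 and 1.3 to -0.04, -0.03 and 0.03, a difference of -1.39 ± 0.0759 (adjusted p = 2.45e-05), and another probe set of Wapl had -1.26. Atad5, which unloads the replication clamp PCNA, fell by 0.94 in stage E2 and rose by 0.21 in stage E1 (adjusted p = 0.0486), a difference of -1.15 ± 0.0791 (adjusted p = 0.000169). Kifc1, a minus-end kinesin of the spindle, had a difference of -1.24, Rnf168, a ubiquitin ligase at DNA breaks, -1.46, Cdk20, a cell cycle kinase, -1.20, and Mcm10, a loader of the replicative helicase, -0.55, each with a fall in stage E2 alone. The falls and differences by which these genes were chosen share the unchallenged arrays with the stage difference, so a high unchallenged stage E2 value is favoured by the choice. The probe sets of these 6 genes were higher in unchallenged stage E2 than E1, by 0.82 to 2.77, and that of Pml by 2.16. Each kept the call with every array left out, apart from the other probe set of Wapl (0.0517 to 0.0696 without any of 5 arrays, EPO-challenged stage E1 array 4, unchallenged stage E2 arrays 1 and 2 and EPO-challenged stage E2 arrays 2 and 3). With array weights per group Cdk20 and Mcm10 did not pass (adjusted p = 0.0662 and 0.0673). Cdk20 spanned 0.037 over all 8 stage E1 arrays. Whether a probe set this flat, or the narrow one of Wapl, had any signal in stage E1 cannot be read from centred values. No gene of the 41 measured mitosis genes was called by its representative probe set in limma (3 higher and 2 lower at an unadjusted p under 0.05, against 7.87% of all genes in either direction), although 33 were higher in unchallenged stage E2.

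Ribosome biogenesis factors, which build ribosomal subunits in the nucleolus, rose in both stages. Of 88 measured, 47 rose and 1 fell in stage E1 and 24 rose in stage E2, with medians of 0.74 and 0.47. No difference passed in limma, and 17 were lower and 1 higher at an unadjusted p under 0.05. The median difference of -0.25 was 0.55 after quantile normalization, where 27 were higher and none lower. Of all 18193 genes, 591 rose and 319 fell in stage E1, and 324 rose in stage E2. In limma 784 of them were lower and 647 higher at an unadjusted p under 0.05. After quantile normalization 475 were higher and 344 lower. In unchallenged cells 69 of the 88 were lower in stage E2, with a median of -1.25. Rrs1, an assembly factor of the large subunit, rose by 2.07 in stage E1 and 2.19 in stage E2, a difference of 0.12 (95% interval -0.22 to 0.47). Gnl3, the nucleolar protein nucleostemin, rose by 1.15 and 1.38 (0.24, -0.05 to 0.53), Nmd3, the exporter of the large subunit, by 1.47 and 1.38 (-0.09, -0.50 to 0.33), and Nip7, another assembly factor, by 1.30 and 1.11 (-0.19, -0.54 to 0.16). Outside this list, the translation start factor Eif1a rose by 1.96 and 1.99 (0.03, -0.45 to 0.50), Chchd4, which oxidises proteins imported into mitochondria, by 1.98 and 1.69 (-0.29, -0.58 to 0.01) and the demethylase Alkbh1 by 1.41 and 1.32 (-0.09, -0.42 to 0.24). The mitochondrial carrier Slc25a51 fell by 1.22 and 1.20, with 0.02 (-0.46 to 0.51). These 8 genes were named for intervals within 1.5-fold, and their size of difference is therefore no finding. After quantile normalization all 8 differences passed, between -1.23 for Slc25a51 and 2.69 for Rrs1.

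**Figure D5:**
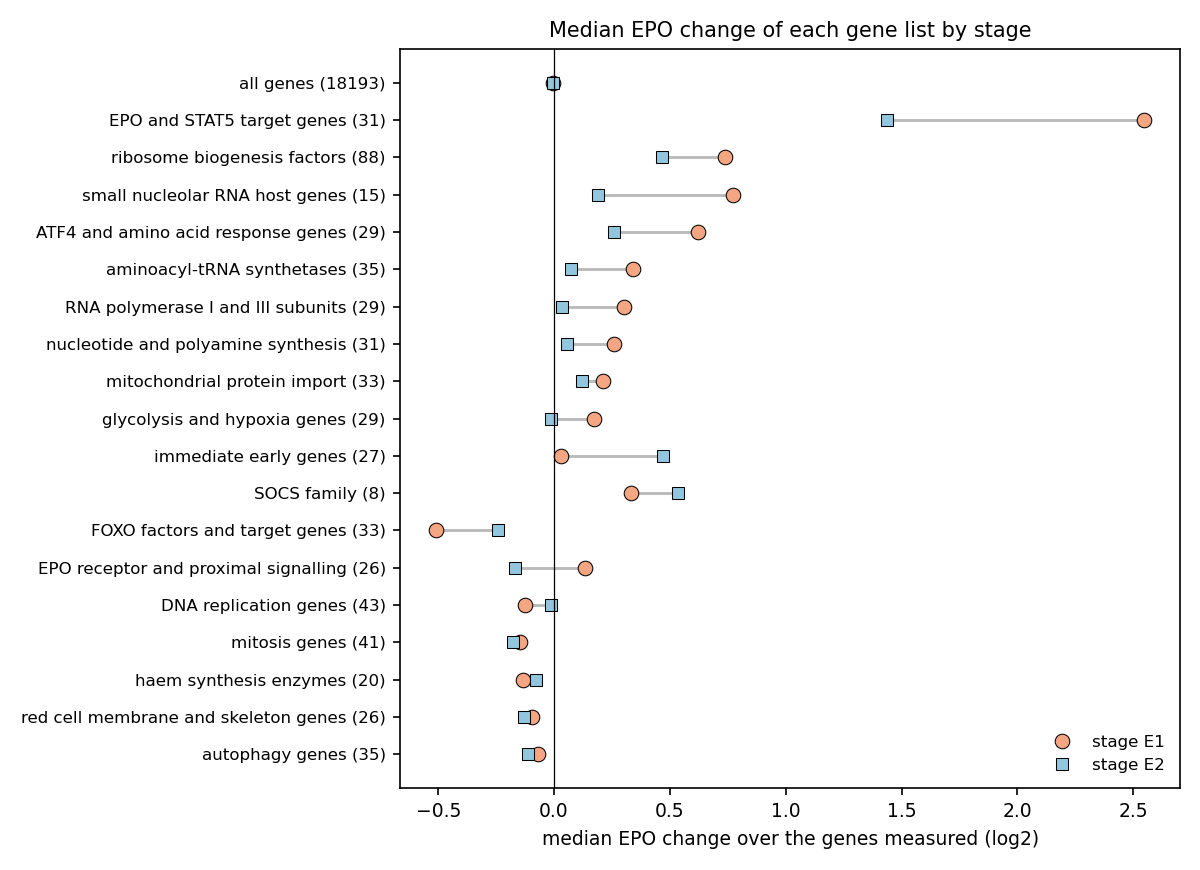
Median change with EPO (log2) in stage E1 and stage E2 over the measured genes of 19 lists, 2 points per list. Medians in stages E1 and E2 are 0.74 and 0.47 for ribosome biogenesis factors and 0.77 and 0.19 for host genes of small nucleolar RNAs. For ATF4 genes they are 0.62 and 0.26. After quantile normalization, not drawn, they are 0.465 and 1.135, 0.446 and 0.431, and 0.395 and 0.41 in the same order.

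Of 15 host genes of small nucleolar RNAs, 5 rose in stage E1 and 2 in stage E2, and no difference passed in limma (1 lower at an unadjusted p under 0.05). After quantile normalization Gas5 and Snhg1 were higher, and the median difference of -0.311 became 0.113. Limma also called no difference among the representative probe sets of 20 haem synthesis enzymes, 6 globin genes, 26 red cell membrane and skeleton genes and 35 autophagy genes. At an unadjusted p under 0.05 stood 3, 1, 4 and 3 of them, in either direction, against 7.87% of all genes. After quantile normalization 1, 0, 1 and 0 of them were higher and 1, 0, 0 and 2 lower, against 475 and 344 of all genes. In the red cell membrane list 21 of 26 genes were higher in unchallenged stage E2, while 2 rose and 4 fell with EPO in stage E1 and 1 rose in stage E2. Of all 18193 genes, 2521 were higher in unchallenged stage E2, 591 rose and 319 fell in stage E1, and 324 rose in stage E2.

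Of all 187 calls, 30 of the 81 higher and 43 of the 106 lower kept their side of the threshold with each array left out in turn. With 1 weight per group of arrays, which gives the tighter stage E2 arrays more weight, 53 of the 81 and 82 of the 106 were kept.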

How the data were processed

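RNA of 14 samples had been hybridised to Affymetrix mouse genome arrays. GCOS served the authors for scanning and GeneSpring GX 11 for GC-RMA, and the deposited log2 values carry a further subtraction of 1 constant per probe set. The base of the log is not stated and was taken as 2. The number of arrays and the spread between them limit the precision.

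Of 45101 probe sets, 64 controls were left out. In limma 3.58.1 (R 4.3.3), a joint fit of the 4 group means gave, for 45037 probe sets, each stage's change with EPO and their difference, by a two-sided moderated test with Benjamini-Hochberg adjustment. A test was passed at an adjusted p under 0.05, and "rose", "fell" and "called" are used in that sense. The design follows the study's unpaired comparison. 34945 probe sets name 1 gene (18193 genes), 932 several and 9160 none, and 34741 matched a current Entrez gene. A gene was represented by the probe set with the largest SD of the values fitted by stage and EPO without an interaction, which does not favour the difference. Named genes were the 12 most negative and 12 most positive representatives that passed, every EPO and STAT5 target, up to 3 genes that passed per other list, and the 8 largest changes whose interval lay within 1.5-fold. Others are marked as chosen after their values were seen. Gene lists and members were chosen with earlier results of these data known, and lists were counted, not tested.

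Same-numbered stage E1 arrays deviated from their group means together (correlations of 0.195, 0.187, 0.173 and 0.152), so their numbers were taken to pair them. Those of stage E2 did not (-0.0609, -0.0567 and -0.0155). Differently numbered stage E1 pairs had correlations of -0.236 to 0.203, the highest for unchallenged array 4 with EPO-challenged array 3. The pairing comes from the labels' numbers and these deviations, which do not single it out.

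The fit was tested on simulated data that took the sample SD of each group, from 3 or 4 arrays, as the true spread. There the share of unchanged probe sets among the interaction calls was several times the nominal share. The fit assumes 1 spread for both stages. Alternatives were quantile normalization, median centring, the trend and robust options of limma, weights per group of arrays, unequal group variances, a test without moderation, the replicate block, a filter by SD, fits on 1 stage, other representatives, an added fold of 2 and each array left out. Array weights per array, the block in stage E1 alone and the fit without both stage E1 arrays of number 1 were added after seeing the data. Promoter sequences are RefSeq's (GRCm38.p6). Figures were drawn with matplotlib 3.10.9 (Python 3.11.15, pandas 2.3.3).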

Additional observations from a re-analysis of the deposited data

Results flagged for a closer look

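The change with EPO differed between stages, by limma's test of the difference itself, in 29 named genes. The differences below 0 (log2, stage E2 minus stage E1) were -3.30 for Trib3, -3.07 for Hhex, -3.06 for Nupr1, -3.01 for Pvt1, -2.68 for Irs2, -2.66 for Chac1, -2.55 for Trgv4, -2.54 for Ydjc, -2.34 for Hk2, -2.28 for Pim1, -2.11 for Pml, -1.96 for Grtp1, -1.38 for Gab2, -1.33 for Cish, -0.99 for Ears2 and -0.74 for Lyl1. Those above 0 were 2.91 for Socs3, 2.26 for Trim15, 2.06 for Klf3, 1.88 for Sesn3, 1.71 for Dusp16, 1.70 for Klf10, 1.70 for Atf3, 1.69 for Wsb2, 1.47 for Phlda1, 1.39 for Maff, 1.36 for Rasl11a, 1.30 for Brpf3 and 0.39 for Pole.

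In 9 of 120 groups of 4 stage E1 arrays, 1 array lay far from the other 3 by Dixon's test, where chance gives about 1 in 20. Among unchallenged arrays these were array 1 for Pml (0.02), Ccnd2 (-0.45) and Gab2 (0.20), and array 3 for Klf3 (-2.21) and Rasl11a (-0.82). Among EPO-challenged arrays they were array 1 for Trgv4 (5.95), array 2 for Noct (1.19) and Slc25a51 (-1.17), and array 4 for Bcl2l1 (-3.05). Leaving that array out moved none of the 9 genes across the threshold. The groups of 3 arrays of stage E2 were too small for this test.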

How the results depend on the processing

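The 81 higher and 106 lower differences became 949 and 769 after quantile normalization, 4 and 2 with unequal group variances, 50 and 66 without moderation, 20 and 24 with a replicate block within each stage, 28 and 39 with a block shared by both stages, 388 and 481 with array weights per array, and 40 and 67 with an added fold of 2. With trend and robust options 47 were higher. Lower differences numbered 162 with the filter by SD, 164 with the replicate block in stage E1 alone and 195 without both stage E1 arrays of number 1. With single arrays left out, the counts ran from 39 (unchallenged stage E2 array 1) to 114 and from 51 (EPO-challenged stage E2 array 1) to 217 (EPO-challenged stage E1 array 1). Unchallenged stage E2 array 2 (42 and 70) and EPO-challenged stage E2 array 3 (58 lower) also moved a count by over 1.5 times.

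In stage E1, rises and falls (1063 and 632) were 368 and 186 after quantile normalization, 535 and 248 with weights per group, 44 and 8 with unequal variances, 1699 and 1221 with weights per array and 362 and 162 on that stage alone, and falls were 1116 with the stage E1 block. In stage E2 (611 and 388) they were 2391 and 2200, 1999 and 1836, 49 and 23, 1961 and 1765, and 1146 and 935 in the same order, 398 and 237 with the block within each stage, and falls were 254 with the shared block. With single arrays left out, stage E2 gave 352 to 678 rises and 194 to 444 falls, and all 6 of its arrays moved a count by over 1.5 times. Without EPO, 4555 probe sets were higher and 4872 lower in stage E2, 2767 and 2620 with unequal variances, and 7962 lower with weights per array.

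Quantile normalization turned the sign of differences that passed before or after it for Trgv4 (0.10), Cish (3.05), Lyl1 (0.005), Bcl6 (-1.07), Ccnd2 (3.22), Lrp8 (1.44), Podxl (2.98), Tnfrsf13c (3.21), Chchd4 (2.05), Nmd3 (1.66), Alkbh1 (1.69), Slc25a51 (-1.23) and Nip7 (1.58), and, with no call before or after, for Gdf3 (0.92), Id1 (1.51), Pim3 (0.77), Plek2 (1.20) and Socs1 (-0.002). It gives both stages the same spread by construction, and which spread is right was not tested. The values it was applied to were centred, and their spread over an array depends on the constants subtracted. A narrower spread in stage E2 therefore need not reflect a smaller response there, nor a call for widening it. Whether the authors normalized the arrays of both stages together is not given in the sources used here. No other alternative turned a called direction among the named genes. Of their 1559 alternative values, 1310 kept direction and side of the threshold, 31 of 12 genes turned in sign without a call either way, 189 lost the call, 16 gained it and 13 turned in sign with a call. With unequal variances Dusp16 was the only named gene still called, and the block within each stage ended the calls of 22 of the 29.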
